A study of Mus musculus with 10 samples.

Results

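Matricellular proteins are secreted into the extracellular matrix, where they change how cells attach and respond to it rather than bearing load as collagen does. The 10 genes described here were taken by name: *Sparc* and *Sparcl1*, *Tnc* and *Tnxb*, *Thbs1*, *Thbs2*, *Thbs3* and *Thbs4*, *Postn* and *Spp1*. All 10 were found among the 54532 genes of the deposited table. They were measured by poly(A)-selected RNA-seq in heart tissue of 10 *Rit1* M90I/+ mice. Of these, 5 had been given vehicle control and 5 trametinib (1 mg/kg), an allosteric inhibitor of MEK1 and MEK2 (MEKi). Dosing was daily, began at an age of 4 weeks and lasted 20 weeks, and hearts were taken shortly after a last dose. Both groups carried the same heterozygous M90I allele, which had been activated in the germ line by crossing a conditional strain to cytomegalovirus-Cre deleter mice. No wild-type heart was analysed here, so the comparison is between treatments within the mutant genotype. Which part of the heart went into each RNA sample is not given in the sources used here.

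In a healthy adult heart most matricellular genes are expressed at low levels by fibroblasts and vascular cells, and several are known to be induced by injury, pressure load and transforming growth factor–β. Of the thrombospondins described here, those encoded by *Thbs1* and *Thbs2* are trimeric and those encoded by *Thbs3* and *Thbs4* are pentameric. Receptors for the family include integrins, CD36, CD47 and CD44. ERK, the kinase downstream of MEK, acts on transcription factors of the AP-1 and ETS families.

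The hearts had between 13647167 and 18474002 fragments in genes, as recovered from the deposited FPKM, a fragment count divided by gene length and library size. The cardiomyocyte transcript *Myh6* was abundant in every heart, with group means of 2044 ± 368 FPKM (vehicle) and 2494 ± 336 FPKM (MEKi; SD, n = 5 each). *Xist*, the transcript of the inactive X chromosome, reached no more than 0.00662 FPKM in the vehicle group but 5.16 to 6.85 FPKM in every heart given MEKi, and the Y-linked gene *Ddx3y* ran from 10.3 to 12.2 FPKM in the vehicle group and was listed at 0 in all hearts given MEKi. The sex-linked transcripts thus split the hearts exactly as treatment did, and for each value below the contributions of treatment and sex cannot be told apart. Vehicle replicates 4 and 5 and MEKi replicate 2 stood apart for atrial transcripts, with 898, 423 and 740.4 FPKM summed over *Sln*, *Myl7*, *Myl4*, *Dkk3*, *Stard10* and *Bmp10*, against 13.7 to 59.0 FPKM in the other hearts.

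To ask whether MEK inhibition changed the matricellular transcripts of mutant hearts, log2(FPKM + 0.1) was compared with limma over the 12602 genes averaging 0.5 FPKM or more. Of the 10 genes, 8 passed this filter, and *Tnc* and *Spp1* did not. No member passed an adjusted p of 0.05 (limma, Benjamini-Hochberg adjustment over all genes tested), against a background of 0.0794% of genes called. Without X, Y and mitochondrial genes limma called 0 genes (924 with an unadjusted p under 0.05), and the exact permutation test called 0 of all genes (935 with an unadjusted p under 0.05). By unadjusted p under 0.05 there was 1 member of 8, *Sparc*, or 12.5%, where the background was 7.62% of genes. Groups did not overlap for 0 of the 8 members and for 1.64% of all genes tested. With MEKi 5 members were lower and 3 higher, and the median of their log2 fold changes was −0.09, beside 0.01 for all genes tested. A lower value in bulk tissue can reflect fewer cells of a type or less RNA per cell, which cannot be told apart here. The estimates and their intervals differed widely in precision, from *Sparcl1*, whose 95% interval ran from −0.15 to 0.27, to *Thbs1*, whose interval ran from −1.65 to 0.08.

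**Figure D1:**
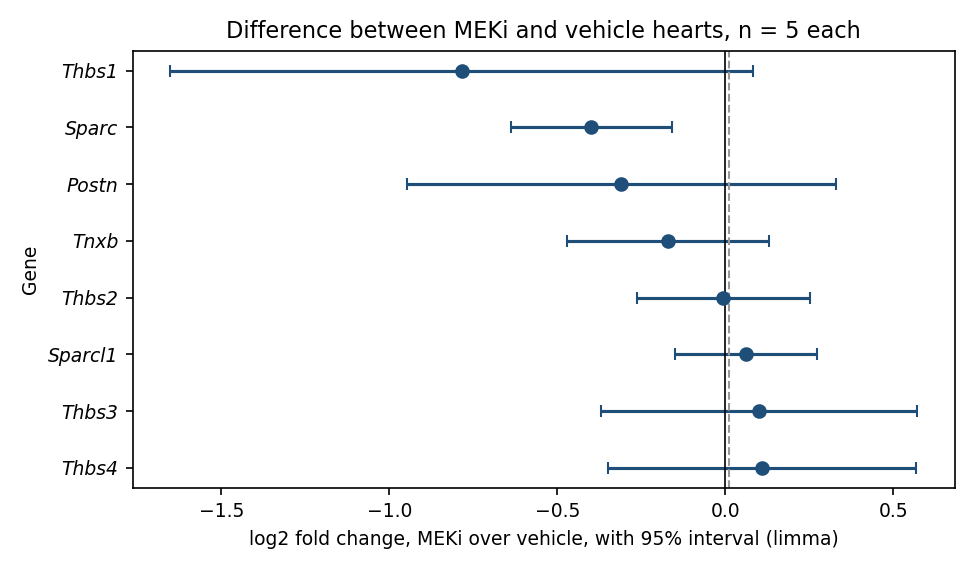
Log2 fold change (x axis, MEKi over vehicle, 5 hearts each) of the 8 genes tested (y axis), with 95% intervals from limma; the solid line marks 0 and the dashed line the median of all genes, 0.01. The interval of Sparc, from −0.64 to −0.16, is the one of the 8 that lies wholly below 0 before adjustment over all genes.

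On the FPKM scale, which is per gene length, mean levels ran from 106.9 down to 0.113. *Sparc*, at 106.9 FPKM on average over the 10 hearts, and *Sparcl1*, at 79.2 FPKM, stood above 96.7% and 95.6% of the genes tested. *Tnxb* followed at 9.73 FPKM and *Postn* at 4.02 FPKM, and *Postn* was near the middle of the genes tested, with 53.2% of them below it. The thrombospondins came next, with *Thbs2* at 2.68, *Thbs4* at 2.18, *Thbs1* at 1.69 and *Thbs3* at 1.30 FPKM. *Tnc* and *Spp1* were last, at 0.143 and 0.113 FPKM. *Sparc* exceeded *Sparcl1* in 10 of 10 hearts, although the ranges of the genes over all hearts overlapped. The ranges did not overlap between *Sparcl1* and *Tnxb*, between *Tnxb* and *Postn*, or between *Thbs3* and *Tnc*. Among the thrombospondins the ranges of neighbours overlapped: *Thbs2* was above *Thbs4* in 9 of 10 hearts, *Thbs4* above *Thbs1* in 6 of 10 and *Thbs1* above *Thbs3* in 5 of 10. The order of *Thbs1* and *Thbs3* differed by group, with *Thbs1* the higher gene in 4 of 5 vehicle hearts and in 1 of 5 MEKi hearts, a difference that was not tested.

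**Figure D2:**
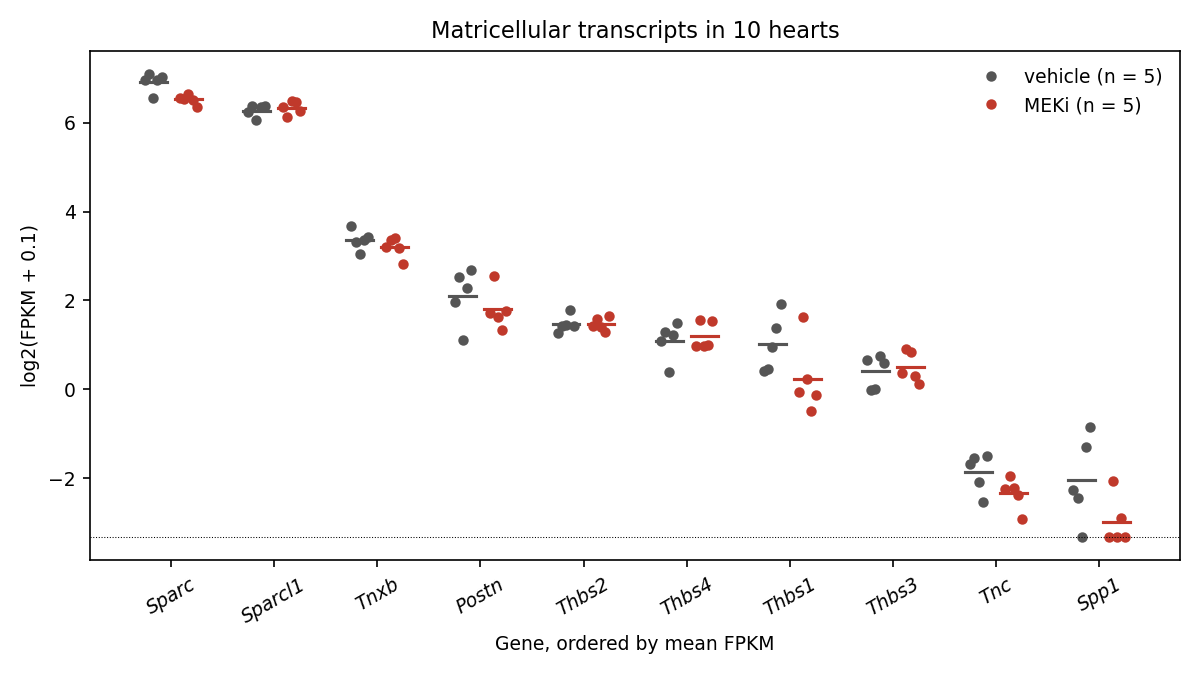
Level of each of the 10 genes (x axis, ordered by mean) as log2(FPKM + 0.1) (y axis), with 1 point per heart, 5 per group, and a bar at the group mean; the dotted line marks a value of 0 FPKM. For Sparc, 4 vehicle hearts lie above every MEKi heart, and Spp1 sits on the dotted line in 4 hearts.

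*Sparc* (ENSMUSG00000018593, chromosome 11 of GRCm38, 55394500 to 55423183, minus strand) encodes the collagen-binding glycoprotein SPARC, or osteonectin, which takes part in collagen assembly. It was at 125, 137, 93.4, 124 and 130.4 FPKM in vehicle replicates 1 to 5, and at 94.0, 93.1, 99.2, 91.5 and 81.7 FPKM in MEKi replicates 1 to 5. Of the vehicle hearts, 4 were above every MEKi heart, and vehicle replicate 3 lay within the MEKi range. The means were 122 ± 16.7 and 91.9 ± 6.40 FPKM (SD, n = 5 each), 24.6% lower with MEKi. The log2 fold change was −0.40 (SE 0.11, 95% interval −0.64 to −0.16, limma unadjusted p = 0.00360), and it did not pass over all genes tested (limma adjusted p = 0.401, between 0.0917 and 0.766 under the alternatives). *Sparc* ranked 112 of 12602 genes by limma p. A two-sided exact permutation test over every assignment of the hearts to groups of 5 gave p = 0.0238 (adjusted p = 0.559 over all genes tested). The log2 fold change was −0.32 on the TPM scale (limma adjusted p = 0.602). Without the 3 hearts of high atrial transcripts it was −0.35 (limma adjusted p = 0.766). Without vehicle replicate 3 the log2 fold change was −0.49 (limma adjusted p = 0.0917). That heart also had the largest mitochondrial share, 35.0% of its fragments against 24.7 to 31.1% in the other vehicle hearts, and it was the lowest vehicle heart for 5 of the 8 members tested (*Postn*, *Thbs4*, *Sparc*, *Sparcl1* and *Tnxb*). The part of that share in the result was not tested. Between 4861 and 7959 fragments per heart lay behind *Sparc*, the most of any member.

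*Sparcl1* (ENSMUSG00000029309, chromosome 5, 104079111 to 104113733, minus strand) encodes SPARC-like 1, or hevin, the nearest relative of SPARC. Vehicle replicates 1 to 5 had 74.9, 82.3, 66.6, 80.9 and 82.6 FPKM, and MEKi replicates 1 to 5 had 81.3, 69.9, 88.9, 88.0 and 76.5 FPKM. The groups overlapped, and *Sparcl1* differed by 0.06 in log2 (SE 0.10, 95% interval −0.15 to 0.27, limma adjusted p = 0.917). Its spread was small, with a coefficient of variation of 8.80% in vehicle and 9.89% in MEKi hearts, from 2783 to 4620 fragments per heart. An antisense gene that overlaps it, *Gm26703*, had at most 8 fragments.

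The pair was also set side by side as a ratio, which does not depend on how hearts are scaled to each other. This ratio was computed after the values of both genes were seen, so it is a description and is given with no test. *Sparc* over *Sparcl1* was 1.67, 1.66, 1.40, 1.54 and 1.58 in vehicle replicates 1 to 5, and 1.16, 1.33, 1.12, 1.04 and 1.07 in MEKi replicates 1 to 5. Every MEKi heart was below every vehicle heart, with means of 1.57 ± 0.109 and 1.14 ± 0.115 (SD, n = 5 each). Vehicle replicate 3, low for both genes, had the lowest ratio of its group but stayed above the MEKi hearts. With any 1 heart left out, the difference of means stayed between −0.47 and −0.40, and without the 3 hearts of high atrial transcripts it was −0.48. Since the ratio was formed with the values of both genes known, its separation and these differences are no independent support. How many other pairs of genes separate as fully was not counted. Neither gene passed the test over all genes.

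**Figure D3:**
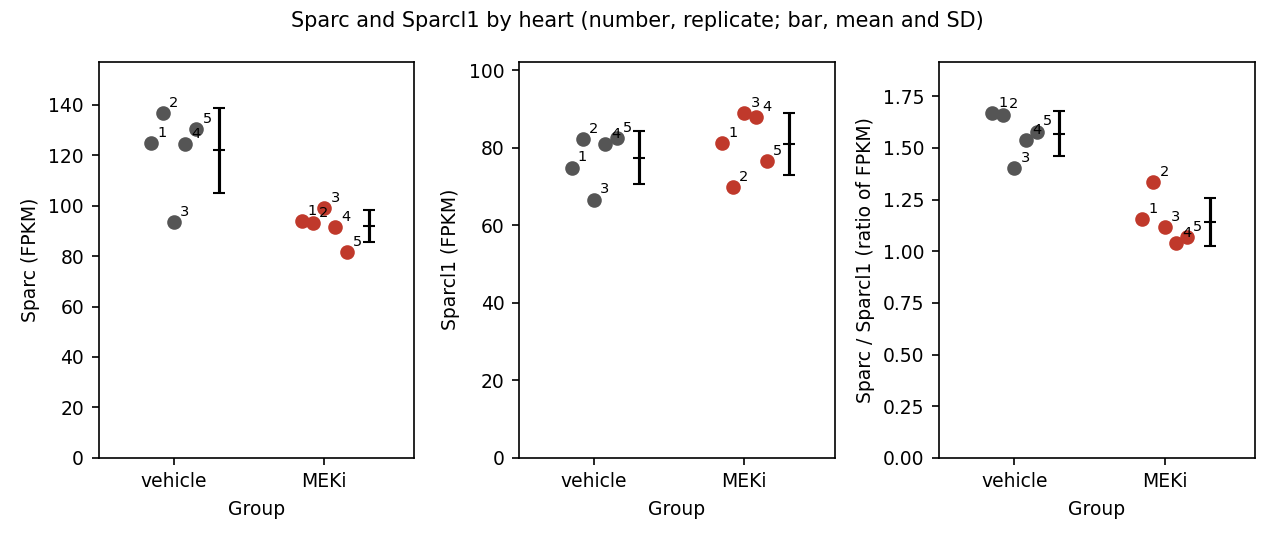
Sparc and Sparcl1 in FPKM and their ratio (y axes, each from 0) in vehicle and MEKi hearts (x axis), with 1 numbered point per heart and a bar for the mean and SD of 5 hearts. Vehicle replicate 3 joins the MEKi range for Sparc at 93.4 FPKM, whereas the ratios, at least 1.40 with vehicle and at most 1.33 with MEKi, are separate.

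Among the tenascins, *Tnxb* (ENSMUSG00000033327, chromosome 17, 34670535 to 34719815, plus strand), which encodes a tenascin of loose connective tissue needed for normal collagen deposition, was the expressed member. It was at 12.7, 9.91, 8.09, 10.1 and 10.7 FPKM in vehicle replicates 1 to 5 and at 9.12, 10.1, 10.5, 8.94 and 6.99 FPKM in MEKi replicates 1 to 5. The groups overlapped, with 1 MEKi heart below the lowest vehicle heart, and *Tnxb* differed by −0.17 in log2 (SE 0.14, 95% interval −0.47 to 0.13, limma adjusted p = 0.812), on 1341 to 2615 fragments per heart. Of the 50-base words of its longest annotated transcript, 6.23% also occur in the pseudogene *Tnxa*, which had at most 1 fragment in a heart. *Tnc* (ENSMUSG00000028364, chromosome 4, 63959785 to 64047015, minus strand) encodes tenascin-C, which is scarce in adult myocardium and known to reappear after injury. Over 5 hearts it had 107 fragments with vehicle and 66 with MEKi, from 4 to 29 per heart. Its values were 0.214, 0.241, 0.136, 0.0739 and 0.256 FPKM with vehicle and 0.113, 0.157, 0.114, 0.0935 and 0.0328 FPKM with MEKi. Each of the 5 MEKi hearts was below the vehicle median, but the groups overlapped (two-sided exact permutation test, p = 0.111).

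*Postn* (ENSMUSG00000027750, chromosome 3, 54361109 to 54391037, plus strand) encodes periostin, a matrix protein made by activated fibroblasts and valve cells. It was at 3.82, 5.65, 2.05, 4.73 and 6.32 FPKM in vehicle replicates 1 to 5. In MEKi replicates 1 to 5 it was at 3.20, 5.72, 3.01, 2.44 and 3.30 FPKM. Of the MEKi hearts, 4 lay below the vehicle median, and MEKi replicate 2 was as high as the upper vehicle hearts. Means were 4.52 ± 1.67 and 3.53 ± 1.27 FPKM, and the log2 fold change, −0.31 (SE 0.29, 95% interval −0.95 to 0.33), was within the spread between hearts (limma adjusted p = 0.833). Single hearts moved it considerably: it was −0.17 without vehicle replicate 5, −0.21 without vehicle replicate 2, −0.19 without MEKi replicate 4, −0.49 without MEKi replicate 2 and −0.56 without vehicle replicate 3, and none of these passed over all genes (limma adjusted p between 0.452 and 0.960 over the alternatives).

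*Postn*, *Thbs1* and *Thbs4* were highest in the same heart of each group, vehicle replicate 5 and MEKi replicate 2. RefSeq promoters (GRCm38.p6) were matched for 8 of the 10 members, and *Thbs1* and *Sparcl1* were not among them. The 250 bases before the start site are shown for *Postn* and *Thbs4*, as members that peaked together, and for *Tnxb*, as the member with letters of an AP-1 site, the kind of element through which ERK signaling is known to act. Capitals mark matches to 4 motifs searched on both strands: a TATA box (TATAAA), an AP-1 site (TGANTCA), an ETS site (CCGGAA) and the CArG box bound by serum response factor. The windows lie at chr3:54360857-54361106 (plus strand), chr13:92794819-92795068 (minus strand) and chr17:34670285-34670534 (plus strand), outside annotated exons of GENCODE M21.
Postn: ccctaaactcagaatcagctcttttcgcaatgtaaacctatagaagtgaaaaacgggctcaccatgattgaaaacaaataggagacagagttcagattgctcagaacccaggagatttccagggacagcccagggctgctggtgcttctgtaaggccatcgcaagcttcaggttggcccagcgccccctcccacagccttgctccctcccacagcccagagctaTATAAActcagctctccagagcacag
Thbs4: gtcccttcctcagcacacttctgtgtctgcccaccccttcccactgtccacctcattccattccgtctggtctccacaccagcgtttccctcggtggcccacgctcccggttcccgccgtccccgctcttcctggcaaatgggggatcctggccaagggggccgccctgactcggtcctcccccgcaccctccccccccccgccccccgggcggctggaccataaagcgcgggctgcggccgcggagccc
Tnxb: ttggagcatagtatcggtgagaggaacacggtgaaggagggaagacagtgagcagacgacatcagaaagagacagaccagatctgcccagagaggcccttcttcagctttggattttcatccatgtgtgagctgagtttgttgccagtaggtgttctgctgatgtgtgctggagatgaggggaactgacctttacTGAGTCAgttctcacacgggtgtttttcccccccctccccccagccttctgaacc
The *Postn* window has a TATA box 26 bases before the start, as 12.4% of 32851 promoter windows of this length have anywhere. The *Thbs4* window holds none of the 4 motifs, and 70.8% of its bases are G or C, against 52.0% for *Postn*. The *Tnxb* window has an AP-1 match 55 bases before the start, a motif present in 6.75% of windows, while ETS and CArG matches occur in 12.0% and 1.47%. Among the other members matched, *Thbs2*, *Tnc* and *Spp1* had a TATA match, *Spp1* also had an ETS match, and *Thbs3* and *Sparc* had none. The start site used for *Sparc* lies 3103 bases from the deposited start of the gene. Its window overlaps an annotated exon of *Sparc* and is not shown, and its lack of matches does not describe the sequence before the deposited start. A match is a string of letters and says nothing of binding in these hearts.

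*Thbs1* (ENSMUSG00000040152, chromosome 2, 118111876 to 118127133, plus strand) encodes thrombospondin-1, an activator of latent transforming growth factor–β and an inhibitor of angiogenesis that platelets also carry. Vehicle replicates 1 to 5 had 1.22, 1.28, 1.83, 2.495 and 3.70 FPKM, and MEKi replicates 1 to 5 had 0.855, 3.00, 1.08, 0.617 and 0.817 FPKM. Of the MEKi hearts, 4 were below the lowest vehicle heart, and MEKi replicate 2 was above all vehicle hearts but 1. The means, 2.11 ± 1.03 and 1.27 ± 0.981 FPKM, gave the largest difference among the members tested, a log2 fold change of −0.78 (SE 0.40, 95% interval −1.65 to 0.08), which did not pass (limma adjusted p = 0.673; two-sided exact permutation test, p = 0.135). *Thbs1* also had the widest spread of the 8 members tested, with coefficients of variation of 48.8% with vehicle and 77.0% with MEKi. With single hearts left out the log2 fold change ran from −1.13 to −0.56. It was −1.13 without MEKi replicate 2 (limma unadjusted p = 0.00351, adjusted p = 0.444). Without vehicle replicate 5 it was −0.56 (limma unadjusted p = 0.181, adjusted p = 0.845), and without MEKi replicate 4 −0.60 (limma unadjusted p = 0.167, adjusted p = 0.847). Without the 3 hearts of high atrial transcripts it was −0.71 (limma unadjusted p = 0.0139, adjusted p = 0.743). Over all alternatives the adjusted p lay between 0.444 and 0.847. From 67 to 327 fragments per heart lay behind these values.

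The 3 hearts with the most *Thbs1*, vehicle replicates 5 and 4 and MEKi replicate 2, were the 3 with high atrial transcripts. Platelet markers (*Pf4*, *Ppbp*, *Itga2b*, *Gp9* and *Gp1bb*, of which 4 of 5 were tested) summed to 148 FPKM in vehicle replicate 5, against 36.1 to 45.5 FPKM in the other vehicle hearts and 25.3 to 41.7 FPKM in MEKi hearts, and *Gp1bb* was at or near 0 throughout. The part of atrial tissue and of platelets in the values of *Thbs1* was not tested beyond leaving those hearts out. Macrophage markers (*Adgre1*, *Cd68*, *Csf1r*, *C1qa*, *C1qb*, *Mrc1* and *Lyz2*, 7 of 7 tested and 7 lower with MEKi) summed to between 424 and 719 FPKM in vehicle hearts and between 337 and 421 FPKM in MEKi hearts, without overlap. The gap between these sums was narrow, from 420.6 FPKM in MEKi replicate 3 to 423.7 FPKM in vehicle replicate 3. *Lyz2* weighed most in the sum (vehicle mean 281 FPKM, MEKi mean 199 FPKM). Taken gene by gene, groups did not overlap for 1 of the 7, *Lyz2*, beside 1.64% of all genes tested. None of the 7 was called (lowest limma adjusted p = 0.456).

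**Figure D4:**
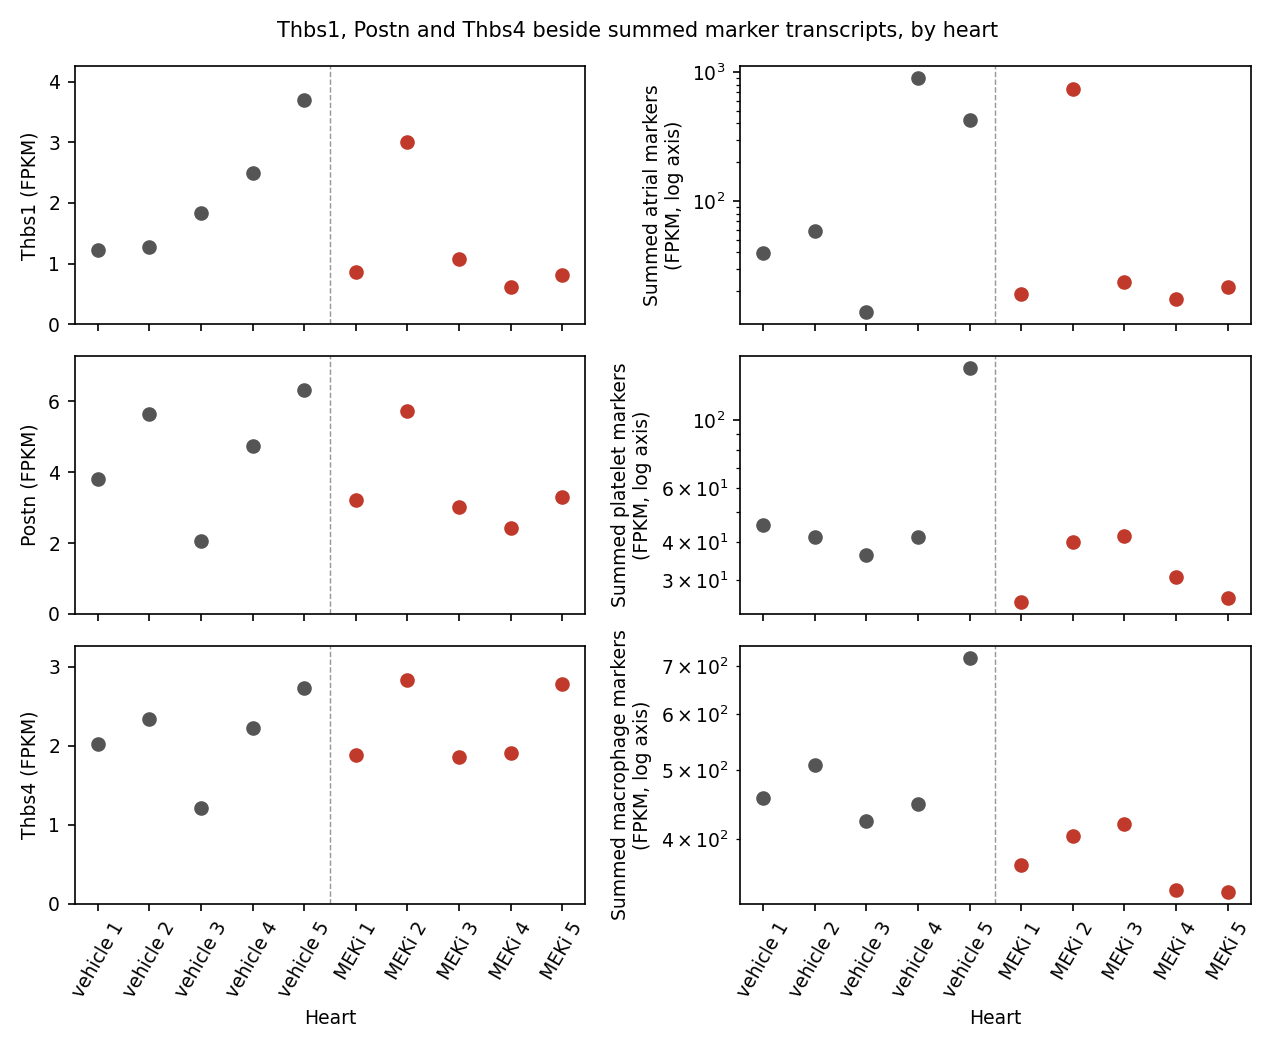
FPKM of Thbs1, Postn and Thbs4 (left, linear y axes) and summed FPKM of atrial, platelet and macrophage markers (right, log y axes) in each heart (x axis; grey, vehicle; red, MEKi). Vehicle replicate 5 and MEKi replicate 2 carry the group maxima of Thbs1, Postn and Thbs4, and both are among the 3 hearts at 423 FPKM of atrial markers or more.

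The other thrombospondins had smaller estimates than *Thbs1*, with intervals that overlapped its own, and the differences between the genes were not tested. *Thbs2* (ENSMUSG00000023885, chromosome 17, 14665500 to 14694235, minus strand), whose product also inhibits angiogenesis, was at 2.33, 2.61, 2.61, 3.33 and 2.59 FPKM with vehicle and 2.59, 2.88, 2.54, 2.34 and 3.02 FPKM with MEKi. Its log2 fold change was −0.01 (SE 0.12, 95% interval −0.26 to 0.25, limma adjusted p = 0.993), and the sign turned under several alternatives. *Thbs4* (ENSMUSG00000021702, chromosome 13, 92751590 to 92794818, minus strand), which encodes a stress-inducible thrombospondin of heart and tendon, was at 2.02, 2.34, 1.22, 2.23 and 2.74 FPKM with vehicle and 1.88, 2.83, 1.86, 1.90 and 2.79 FPKM with MEKi. MEKi replicates 2 and 5 were above every vehicle heart, and the other MEKi hearts lay between vehicle replicate 3 and the next vehicle heart (log2 fold change 0.11, SE 0.21, 95% interval −0.35 to 0.57, limma adjusted p = 0.935). *Thbs3* (ENSMUSG00000028047, chromosome 3, 89215180 to 89226837, plus strand) was at 1.49, 0.892, 0.904, 1.59 and 1.41 FPKM with vehicle and 1.19, 1.76, 1.68, 1.14 and 0.990 FPKM in the MEKi group, and the groups overlapped (a log2 difference of 0.10, SE 0.22, 95% interval −0.37 to 0.57, limma adjusted p = 0.944). *Thbs3* is overlapped by *Mtx1* on the opposite strand, which had 221 to 435 fragments per heart against 62 to 146 for *Thbs3*, and 3.44% of the 50-base words of the longest *Thbs3* transcript also occur in *Mtx1*. The strand setting of the counting is not given in the sources used here, so the value of *Thbs3* is uncertain. No 50-base word of *Thbs2* or *Thbs4* occurs in another gene, and the words that *Thbs1* shares, 1.62%, are those of the lincRNA *Gm29233*, which had no fragment. *Thbs2* rested on 260 to 346 fragments per heart and *Thbs4* on 57 to 160.

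Shares were taken of the FPKM summed over *Thbs1*, *Thbs2*, *Thbs3* and *Thbs4* only. Of these genes *Thbs2* was first in both groups, at 33.7 ± 5.60% with vehicle and 36.3 ± 5.23% with MEKi. *Thbs1* made up 24.9 ± 7.52% with vehicle and 15.6 ± 7.56% with MEKi, *Thbs4* 25.9 ± 5.44% and 30.1 ± 4.26%, and *Thbs3* 15.5 ± 3.47% and 18.1 ± 3.78% (SD, n = 5 each). These shares sum to 100% in each heart, so a lower share of 1 gene raises the others.

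*Spp1* (ENSMUSG00000029304, chromosome 5, 104435118 to 104441050, plus strand) encodes osteopontin, a secreted integrin ligand that macrophages make after injury. It was nearly absent, with 23 fragments over all vehicle hearts and 5 over all MEKi hearts. Of its 50-base words, 9.05% also occur in *Gm42793*, which overlaps it on the same strand and had no fragment. A low count in the other gene, here as for *Tnxb* and *Thbs1*, does not show whether shared fragments were left out of both. By heart *Spp1* had 3, 2, 0, 7 and 11 fragments in vehicle replicates 1 to 5 and 0, 4, 0, 1 and 0 in MEKi replicates 1 to 5. The highest vehicle heart was at 0.459 FPKM and the highest MEKi heart at 0.141 FPKM, and a count of 0 allows up to 0.102 to 0.131 FPKM depending on the depth of the heart, for counting error only. A difference was not detectable at this depth (two-sided exact permutation test on log2 values, p = 0.127). The most *Spp1* was in vehicle replicates 5 and 4. MEKi replicate 2 came next with 4 fragments against 3 in vehicle replicate 1, an order that such counts do not settle.

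Related genes were read from lists in the same fit. Over all genes tested, 0.0794% were called, 7.62% had a limma unadjusted p under 0.05 and 47.9% were lower with MEKi. Of 20 further matricellular genes, 10 passed the filter, 5 of them lower and 5 higher, with a median log2 fold change of 0.01. Of these, 0 were called and 3 had a limma unadjusted p under 0.05. *Ccn5*, listed as *Wisp2*, encodes a growth-restraining CCN protein and went from 4.71 ± 1.78 to 2.26 ± 1.51 FPKM, a difference in log2 of −1.10 (SE 0.38, limma adjusted p = 0.521). *Ccn1*, listed as *Cyr61*, encodes an integrin ligand and went the other way, from 13.7 ± 2.13 to 17.9 ± 2.79 FPKM (log2 fold change 0.38, limma adjusted p = 0.543). *Smoc2*, of the SPARC family, was at 14.3 ± 3.74 and 18.2 ± 2.40 FPKM (log2 fold change 0.37, limma adjusted p = 0.626), and *Smoc1* at 6.61 ± 6.19 and 4.03 ± 0.523 FPKM (log2 fold change −0.35, limma adjusted p = 0.872). *Sparc* and *Ccn5* on one side and *Ccn1* and *Smoc2* on the other thus had opposite signs, and none passed.

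Of 14 receptor genes, 13 were tested, 8 lower and 5 higher, at a median log2 fold change of −0.08, with 0 called. A limma unadjusted p under 0.05 was found for 1 of the 13, where the background was 7.62% of genes. Groups did not overlap for 1 of the 13, beside 1.64% of all genes tested. *Stab1*, which encodes stabilin-1, a scavenger receptor that takes up SPARC, averaged 9.34 ± 2.43 FPKM (vehicle) and 6.46 ± 0.446 FPKM (MEKi), every MEKi heart being below every vehicle heart (log2 fold change −0.50, SE 0.15, limma adjusted p = 0.455). *Itgb3*, an integrin β chain, differed by −0.38 in log2, *Cd44* by −0.19 and *Lrp1*, an endocytic receptor of thrombospondins, by −0.17 (limma adjusted p = 0.875, 0.844 and 0.756). *Cd36* and *Itgb1* were far more abundant, at 293 ± 35.9 and 70.9 ± 9.83 FPKM with vehicle against 272 ± 19.4 and 74.6 ± 4.73 FPKM with MEKi, and were named after their values were seen.

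Of 15 collagen and activated-fibroblast genes, 12 were tested, and 10 were lower and 2 higher, beside 47.9% of all genes lower. Their median log2 fold change was −0.33, with 0 called. A limma unadjusted p under 0.05 was found for 3 of the 12, where the background was 7.62% of genes. *Cilp* was at 2.72 ± 1.21 and 1.83 ± 1.07 FPKM (log2 fold change −0.53, limma adjusted p = 0.777). *Meox1*, a transcription factor of activated fibroblasts, was at 7.95 ± 1.70 and 5.59 ± 0.733 FPKM (log2 fold change −0.48, limma adjusted p = 0.488). *Fn1*, which encodes fibronectin, differed by −0.40 in log2, and *Acta2*, smooth muscle α-actin, by 0.39 (limma adjusted p = 0.811 and 0.757). Fibroblast markers themselves (*Pdgfra*, *Tcf21*, *Dcn*, *Lum*, *Col15a1*, *Gsn* and *Dpt*) were 3 lower and 4 higher, with a median of 0.11, and summed to between 762 and 1071 FPKM with vehicle and between 711 and 973 FPKM with MEKi. Thrombospondin-4 is known to act with ATF6 in the endoplasmic reticulum, and in a list of 11 genes, *Atf6* itself and endoplasmic reticulum chaperones under it, 7 were lower and 4 higher, *Atf6* among the latter, with a median of −0.05, 0 called and 0 with an unadjusted p under 0.05. The 4 with the largest differences were *Creld2* (log2 fold change −0.29), *Pdia4* (−0.29), *Atf6* (0.28) and *Hsp90b1* (−0.25), with limma adjusted p from 0.715 to 0.777.

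**Figure D5:**
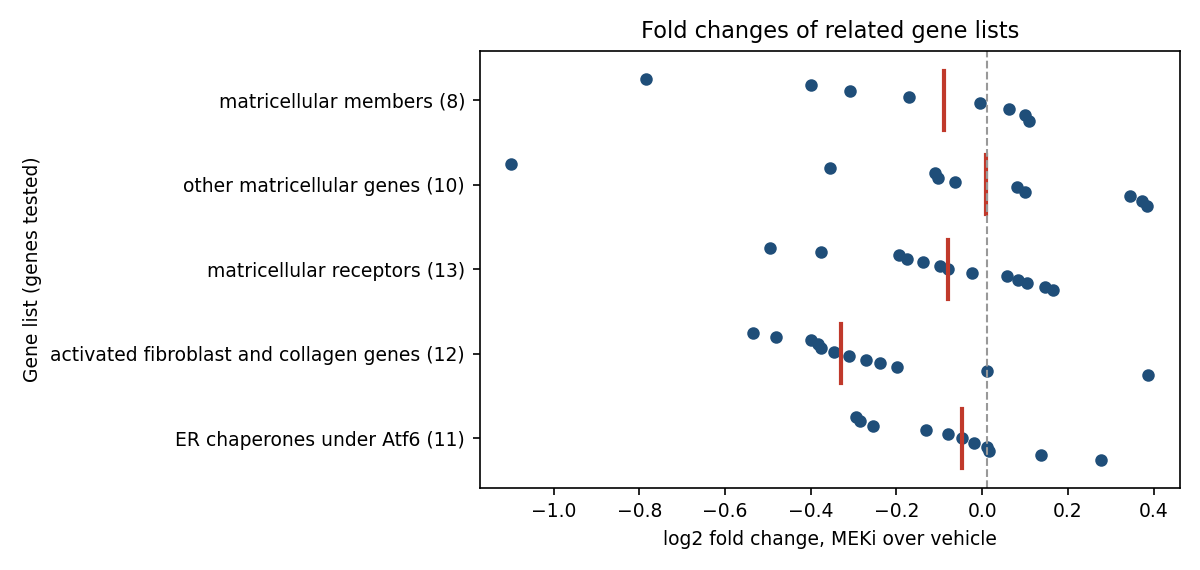
Log2 fold change (x axis, MEKi over vehicle) of each gene tested in 5 lists (y axis, with the number of genes tested), with a red bar at the median of the list and a dashed line at the median of all genes, 0.01. The collagen and activated-fibroblast list has the lowest median, −0.33, and no gene shown passed the threshold over all genes.

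Markers of other cell types were spread around the members as follows, with 0 of the genes called in any of the 10 marker lists. Cardiomyocyte markers were 1 lower and 6 higher (median 0.15), endothelial markers 6 lower of 6 (−0.14), and smooth muscle and pericyte markers 6 lower of 6 (−0.21). Macrophage markers had a median of −0.36, platelet markers −1.15 (4 lower of 4) and epicardial and mesothelial markers −1.32 (6 lower of 6). The summed epicardial and mesothelial level ranged from 8.25 to 24.9 FPKM with vehicle and from 0.875 to 17.7 FPKM with MEKi. Valve and tendon markers were 2 lower and 2 higher (−0.06), with *Kera* at 0 in every heart, and Schwann cell markers 3 higher of 3 (0.21). *Cnmd*, a marker of valve and tendon named after its values were seen, was at 1.70 ± 0.544 and 0.789 ± 0.385 FPKM (a log2 difference of −1.09, limma unadjusted p = 0.00402, adjusted p = 0.410). An unadjusted p under 0.05 was found for 3 of 7 macrophage, 1 of 7 fibroblast, 1 of 4 platelet, 1 of 4 valve and tendon and 1 of 3 Schwann cell markers, and for 0 of the markers in the other lists, where the background was 7.62%. Atrial markers were 5 lower of 5, with a median of −2.23, and their sums in the 3 hearts named above were the highest of the 10. The part of these cell types in the values of the members was not tested.

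For each member tested, the 2 protein-coding genes with the most similar profile were taken from 9797 genes averaging 1 FPKM or more, by Pearson's r of log2(FPKM + 0.1) over the 10 hearts. Being the best of so many, these r values are high by choice, from 0.897 to 0.970, and are given with no p. All points share the library, depth and tissue makeup of a heart. *Postn* was most like *Ecm1* (r = 0.936, Spearman's rho = 0.867) and *Cilp* (r = 0.934, rho = 0.879), which encode secreted matrix proteins, and r stayed at 0.926 and 0.923 without the 2 hearts farthest from the *Postn* median. *Thbs1* was most like *Bst1* (r = 0.931, rho = 0.952) and *Mmp3* (r = 0.930, rho = 0.891), the latter a matrix metalloproteinase, with r of 0.853 and 0.869 without its 2 farthest hearts. *Tnxb* was most like *Gabbr1* (r = 0.970) and *Plbd2* (r = 0.960), and *Sparc* most like *March2* and *Il4ra* (r = 0.925 each). *Thbs2* went with *Stard3nl* (r = 0.902) and *Gas1* (r = 0.897), and r was 0.663 and 0.942 without the 2 farthest hearts. *Thbs3* went with *Anapc11* (r = 0.919) and *C1s1* (r = 0.907), *Thbs4* with *Rab34* (r = 0.931) and *Fam104a* (r = 0.916), and *Sparcl1* with *L3hypdh* (r = 0.933) and *Actr5* (r = 0.913). Without the 2 farthest hearts r was 0.858 and 0.822 for *Thbs3*, 0.829 and 0.714 for *Thbs4*, 0.769 and 0.745 for *Sparcl1*, 0.922 and 0.925 for *Sparc*, and 0.929 and 0.907 for *Tnxb*. No gene was on this list for more than 1 member.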

How the data were processed

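Poly(A)-selected RNA of 10 *Rit1* M90I/+ hearts was sequenced, and the authors deposited 1 table of FPKM, fragments scaled by gene length and library size. The submitters' processing notes name fastp, STAR 2.5, HTSeq 0.6.1 and mm10, and the annotation and strand setting are not given in the sources used here. Groups and replicate numbers came from the labels. Multiplying by gene length gave whole multiples of 1 step for 100% of values in each heart (tolerance 0.01), and hence the fragments behind each value, 13647167 to 18474002 per heart. The limit for a count of 0 was 3 fragments. The denominators of the deposited FPKM matched totals scaled by median-of-ratios size factors. Coordinates are GRCm38, since 98.3% of 54409 genes have the same position in GENCODE M21.

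Values were tested as log2(FPKM + 0.1) with limma 3.58.1 (R 4.3.3; lmFit, eBayes with trend) where the gene averaged 0.5 FPKM or more, two-sided, with Benjamini-Hochberg adjustment over all 12602 genes and a threshold of 0.05. Single genes were also compared by exact permutation (Python 3.11.15, scipy 1.17.1). The fit was tested on simulated data. The simulation gave every gene the same dispersion and no split by sex, so it does not cover those features of the real hearts. The members, lists and tests were chosen with earlier results of these data known. All members are named. From other lists up to 4 genes with the largest difference are named, and genes outside this choice are marked. The alternatives were other pseudocounts, filters, scalings, variance models, a replicate block and omission of hearts. Labels give the replicates as biological, and same-numbered hearts are not said to be paired.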

Additional observations from a re-analysis of the deposited data

Results flagged for a closer look

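Among 40 groups of 5 hearts examined (the 10 members and the 10 marker sums, each on a log2 scale), 5 had 1 heart far from the rest, measured as the gap to its nearest neighbour over the range of the group, where 0.71 is the limit and chance gives about 2. For *Sparc*, vehicle replicate 3 was far below the other vehicle hearts (gap 0.753 of the range), at 93.4 FPKM. Vehicle replicate 5 was far above its group for platelet markers (gap 0.835), and MEKi replicate 2 for atrial markers (gap 0.918), and both were the group maxima of *Postn*, *Thbs1* and *Thbs4*. MEKi replicate 5 was low for cardiomyocyte markers (gap 0.714), and it was the lowest MEKi heart for *Sparc*, *Tnxb* and *Thbs3*. Vehicle replicate 4 was low for smooth muscle and pericyte markers (gap 0.741), and it was the highest vehicle heart for *Thbs2* and *Thbs3*. The causes were not tested.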

How the results depend on the processing

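No member was called in any of the 23 alternatives, and 169 of 179 values of the 8 members tested kept their direction. *Postn*, *Thbs1*, *Sparc*, *Sparcl1* and *Tnxb* kept theirs in every fit that held them. *Thbs2* changed sign on the TPM scale (0.0708), with quantile normalization (0.0107) and without the 3 hearts of high atrial transcripts (0.0543), and ranged from −0.0547 to 0.0707 with single hearts left out. *Thbs4* changed sign with array weights (−0.0181) and ranged from −0.0654 to 0.21, and *Thbs3* from −0.0032 to 0.20, with single hearts left out. The count of genes called over all genes, 10, was 18 with array weights, 4 with the replicate block, 5 without the 3 hearts of high atrial transcripts and 2 with a mean of at least 5 FPKM, where fewer genes were tested. It was 0 without X, Y and mitochondrial genes (limma; 924 with an unadjusted p under 0.05) and 0 by exact permutation (935 with an unadjusted p under 0.05), and it ran from 5 (without vehicle replicate 2) to 13 with single hearts left out, with 6 without vehicle replicate 5. Deviations of same-numbered hearts correlated between −0.154 and −0.0209 and 0 hearts went best with their own number. No pairing was thus visible in the transcript levels, which cannot show whether hearts were paired in handling. The block changed no call of a member. Apart from the settings whose construction shows it, the cause was not tested. *Tnc* and *Spp1*, at most 29 and 11 fragments per heart, are limited by depth.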
